A study of Gallus gallus with 24 samples.

Results

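The smooth muscle, fibroblast and extracellular matrix genes of the gut wall were followed in the jejunum of 24 chickens. The set was a list of 35 gene symbols, and 33 of them were found by symbol among the 15618 genes of the deposited RNA sequencing table. TPM2 and FBN1 were not analysed here. All 33 passed the filter of at least 0.5 TPM (transcripts per unit of library total, scaled for transcript length) in at least 6 libraries, as did 13279 genes in all. By role they were 13 contractile proteins, the muscle coactivator MYOCD, 4 fibroblast receptors or markers, 5 fibrillar collagens, 5 other collagens, and 5 matrix glycoproteins or proteoglycans.

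The birds came from the HAS and LAS lines, selected for high and low antibody titres against sheep red blood cells (SRBC). There were 4 groups of 6 birds: HAS birds injected with SRBC (HASI), HAS birds not injected (HASN), LAS birds injected (LASI) and LAS birds not injected (LASN). The labels give day 5 after injection for every sample, the uninjected ones included, and do not give the birds' age or sex. Each library was made from total RNA of a whole jejunum sample, and the labels do not say that the muscle coat was removed or kept.

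The muscle of the gut contracts when myosin slides along actin filaments, after a kinase has phosphorylated the myosin light chain. Myocardin, encoded by MYOCD, is a coactivator that binds serum response factor and drives contractile genes in smooth muscle. Fibroblasts of the gut wall, many of which carry platelet-derived growth factor (PDGF) receptors, make the collagens and glycoproteins of the matrix, and type IV collagen forms the basement membranes under the epithelium and around muscle cells. Because TPM is scaled for transcript length, levels of different genes can be set side by side. In whole tissue, fewer cells of a type and less RNA per cell cannot be told apart.

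The tissue label was checked against its markers. All 10 epithelial marker genes in the table were above 0 in every library, and their summed level ran from 29554 to 71068 TPM. The 33 genes took 0.304% to 1.84% of TPM in a library. The libraries differed in a property that moved with several of these genes. It was the slope of log2(TPM + 1) on log2 of the genomic span of the genes, called the span slope here, and it ran from -0.278 to 0.0153. It split the HASN birds: replicates 1 to 3 had -0.217, -0.278 and -0.240, and replicates 4 to 6 had 0.00411, -0.0248 and 0.0134. The epithelial marker sum split them too, at 64142 to 70945 TPM in replicates 1 to 3 and 29554 to 35629.8 TPM in replicates 4 to 6. That sum is weighted to its most abundant genes, of which APOA1 ran from 10759 to 35863 TPM over the 24 birds. Among the other markers EPCAM ran from 1578 to 2658 TPM, VIL1 from 818 to 1398 TPM and CDH1 from 215 to 717 TPM. The sum is therefore not a direct measure of the amount of epithelium.

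The contractile protein genes had the highest summed level of the roles and varied widely between birds of the same group. Their summed level had a lowest, median and highest value of 2754, 3901 and 5972 TPM in HASI birds and 1515, 4884 and 8908 TPM in HASN birds. In LASI birds these values were 2553, 6424 and 14508 TPM, and in LASN birds 2719, 4914 and 6209.7 TPM. The 4 groups overlapped. The highest bird, LASI replicate 4, had 9.58 times the sum of the lowest, HASN replicate 6. The same LASI bird ranked 1 of 24 for the sums of the matrix glycoprotein genes, of 9 enteric neuron markers and of 8 striated muscle markers, and 19 of 24 for the epithelial markers. Some other birds also had opposite ranks for the contractile sum and the epithelial markers. LASN replicate 3 ranked 21 and 1, and HASN replicate 1 ranked 16 and 3. HASN replicate 5 ranked 7 and 23, and LASN replicate 6 ranked 8 and 22. In further birds the 2 ranks were alike. HASN replicates 6 and 4, at 24 and 23 for the contractile sum, ranked 21 and 24 for the epithelial markers. HASN replicate 2, at 2 for the contractile sum, ranked 4 for them. Single genes weigh heavily in these marker sums. In LASI birds VIP averaged 76.3 TPM of a mean neuron sum of 114 TPM. ACTA1, itself an actin gene, averaged 22.2 TPM of a mean striated muscle sum of 33.7 TPM, and only 4 of those 8 markers passed the filter. The part of the mix of tissue layers in these sums was not tested.

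**Figure D1:**
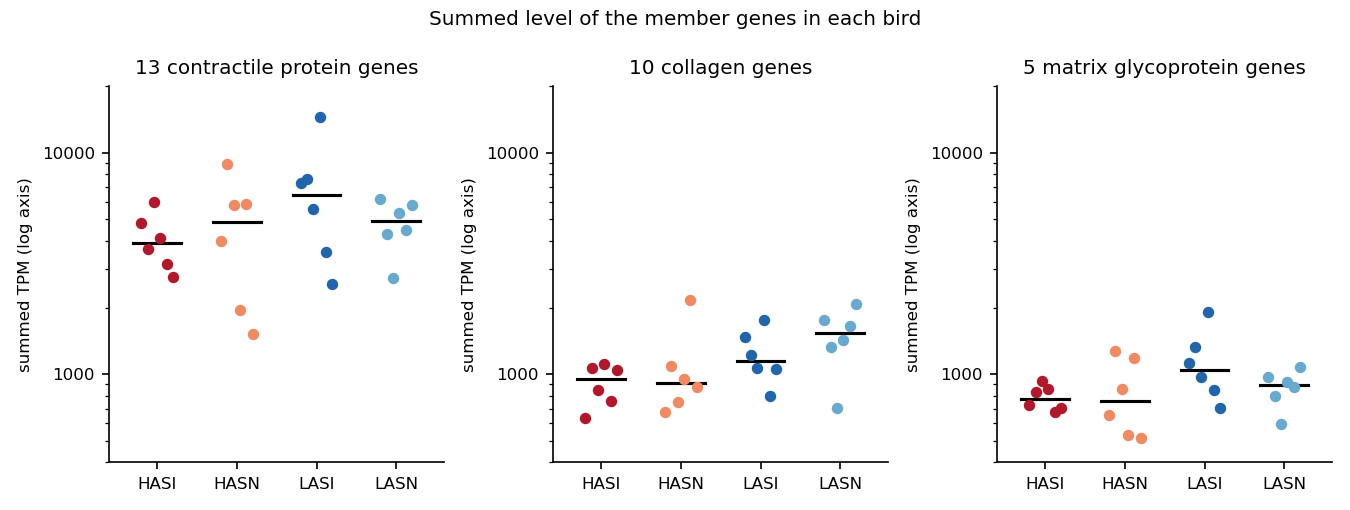
Summed TPM (log axis) of 13 contractile protein genes, 10 collagen genes and 5 matrix glycoprotein genes in each bird, by group. Points are birds, 6 per group, and bars are group medians. The contractile sums run from 1515 to 14508 TPM and overlap between all groups.

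ACTG2 (ENSGALG00000041634, chromosome 22, 3827641 to 3830849, galGal6), the gamma smooth muscle actin of the gut, had the highest mean of the set, 958 TPM over 24 birds. Its lowest, median and highest values were 481, 791 and 1378 TPM in HASI birds and 104, 859 and 1938 TPM in HASN birds. They were 343, 1291 and 3348 TPM in LASI birds and 383, 722 and 1035 TPM in LASN birds. HASN replicates 4 and 6 were the lowest of the 24 birds and LASI replicate 4 the highest.

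MYH11 (ENSGALG00000006520, chromosome 14, 7970779 to 8020491), the smooth muscle myosin heavy chain, had a narrower range. Its lowest, median and highest values were 136, 272 and 423 TPM in HASI birds and 185, 317 and 709 TPM in HASN birds. They were 151, 391 and 714 TPM in LASI birds and 185, 575 and 699 TPM in LASN birds. All 4 groups overlapped.

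DES, the intermediate filament protein desmin (ENSGALG00000011306, chromosome 7, 22170600 to 22175002), followed the pattern of ACTG2. Its lowest, median and highest values were 330.2, 487 and 766 TPM in HASI birds and 179, 703 and 1554 TPM in HASN birds. They were 322, 944 and 2298 TPM in LASI birds and 428, 717 and 1036 TPM in LASN birds. TAGLN, the actin-associated protein transgelin, averaged 592 ± 225 TPM in HASI, 744 ± 517 in HASN, 1126 ± 796 in LASI and 695 ± 189 in LASN (SD, n = 6 each). The other contractile genes averaged over 24 birds from 27.2 TPM for SYNPO2, an actin-binding protein gene, to 700.2 TPM for the myosin light chain gene MYL9. The actins ACTG2 and ACTA2 are near copies of each other, as are the tropomyosin genes TPM1 and TPM4 (gene symbols, not the unit), and how reads were divided between such copies is uncertain.

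Among the matrix genes SPARC, which encodes a collagen-binding glycoprotein, and COL3A1, the chain of type III collagen, were the most abundant. SPARC (ENSGALG00000004184, chromosome 13, 13624036 to 13632278) had a lowest, median and highest value of 507, 577 and 734 TPM in HASI birds and 303, 576 and 1032 TPM in HASN birds. In LASI birds these were 466, 764 and 1481 TPM, and in LASN birds 452, 609.6 and 737 TPM. The groups overlapped, and the HASI and LASN birds lay close together.

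COL3A1 (ENSGALG00000035584, chromosome 7, 618031 to 671774) had a lowest, median and highest value of 191, 336 and 439 TPM in HASI birds and 235, 275 and 824 TPM in HASN birds. In LASI birds these were 271, 418 and 627 TPM, and in LASN birds 249, 552 and 750.3 TPM. HASN replicate 5 was the highest bird, and the groups overlapped.

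COL1A1, a chain of type I collagen (ENSGALG00000041555, chromosome 27, 5538288 to 5555467), averaged 106 ± 15.3 TPM in HASI, 129 ± 69.7 in HASN, 151 ± 67.5 in LASI and 136 ± 40.5 in LASN (SD, n = 6 each). COL1A2, its partner chain, averaged 103 ± 32.0 TPM in HASI, 129 ± 66.4 in HASN, 144 ± 33.1 in LASI and 186 ± 63.2 in LASN. DCN, the collagen-binding proteoglycan decorin, averaged 96.1 ± 14.8 TPM in HASI, 118 ± 43.5 in HASN, 149 ± 38.7 in LASI and 132 ± 40.6 in LASN. None of these 3 genes passed in any comparison of the main limma fit, though DCN and COL1A2 each passed in an alternative fit given below.

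Of the less abundant collagen and glycoprotein genes, COL5A1 averaged 41.1 TPM over 24 birds and COL5A2 24.4 TPM, both chains of type V collagen. LUM, the proteoglycan lumican, averaged 58.3 TPM, and FN1, fibronectin, 56.8 TPM. POSTN, the matricellular protein periostin, was the lowest matrix gene at 7.33 TPM. Of the fibroblast markers, VIM (the intermediate filament protein vimentin) averaged 80.7 TPM, THY1 (a surface glycoprotein) 19.5 TPM, PDGFRA 14.1 TPM and PDGFRB 4.92 TPM. By group THY1 averaged 18.0 ± 3.42 TPM in HASI, 22.2 ± 12.4 in HASN, 21.9 ± 12.0 in LASI and 16.0 ± 3.31 in LASN (SD, n = 6 each).

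COL6A2 and COL4A1 were the most abundant of the collagens that form no large fibrils. COL6A2, a chain of type VI collagen, averaged 109 ± 21.5 TPM in HASI, 122 ± 53.7 in HASN, 149 ± 34.0 in LASI and 160.3 ± 43.8 in LASN. COL4A1, a chain of type IV collagen, averaged 107 ± 20.9 TPM in HASI, 118 ± 63.7 in HASN, 139 ± 49.9 in LASI and 159 ± 50.8 in LASN. For both genes the HASN birds spread the most.

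**Figure D2:**
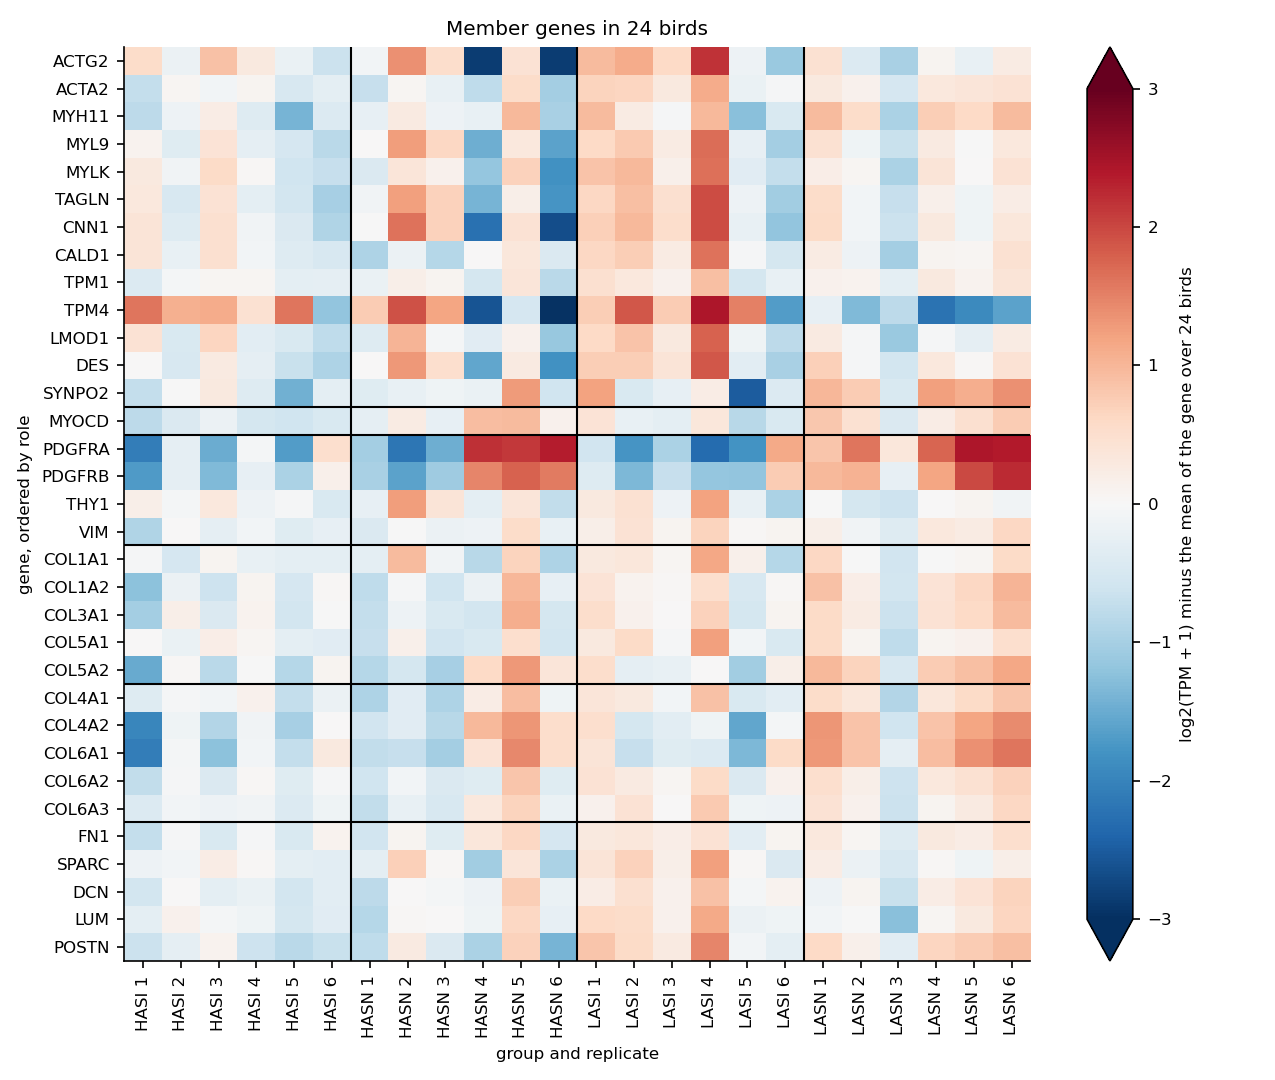
Level of the 33 genes (rows, by role) in the 24 birds (columns, by group), as log2(TPM + 1) minus the mean of the gene over the birds. The dark columns of LASI replicate 4 and of HASN replicates 4 and 6 show contractile genes far above or below their mean, and PDGFRA and PDGFRB are high in HASN replicates 4 to 6 and in most LASN birds.

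The genes varied more within groups than genes at large. The median SD of log2(TPM + 1) within groups was 0.556 over the 33 genes and 0.398 over all tested genes. The sets were not matched for level, and this scale compresses the spread of low genes. With the group means removed, contractile genes varied together from bird to bird. Over the 24 birds ACTG2 correlated with CNN1 (the actin-binding protein calponin) at r = 0.99, with MYL9 at 0.99, with DES at 0.99 and with TAGLN at 0.97. The median over the 78 pairs of contractile genes was 0.78, with a range of -0.09 to 0.996. These values are descriptions, because all genes of a library share its total and its mix of tissue.

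Other genes followed ACTG2 less or ran against it. PDGFRA and PDGFRB correlated with each other at 0.97, and PDGFRA correlated at -0.66 with ACTG2, at -0.91 with TPM4 and at 0.06 with MYH11. COL6A1, COL5A2 and COL4A2, which encode chains of type VI, V and IV collagen, correlated with PDGFRA at 0.83, 0.79 and 0.74. COL1A1 and SPARC lay with the contractile genes, at 0.89 and 0.95 with ACTG2, while COL3A1 lay with COL6A2 at 0.99. The division is one relative to ACTG2: COL3A1 correlated at 0.87 with ACTA2 and 0.80 with MYH11, and COL4A2 and COL5A2 at 0.61 and 0.57 with MYH11. DCN and LUM, which are neighbours on chromosome 1 with 18997 bases and no listed gene between them, correlated at 0.94.

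The span slope moved with the same division. Its correlation with the level over the 24 birds, group means removed, was 0.99 for PDGFRA, 0.96 for PDGFRB, 0.80 for COL6A1, 0.78 for COL5A2 and 0.74 for COL4A2. It was -0.90 for TPM4, -0.68 for CNN1, -0.66 for TAGLN and -0.64 for ACTG2. The slope is computed from the same values. Over the 33 genes the median correlation was 0.11, with 18 above 0, against a median of 0.65 over all tested genes, of which 78.5% were above 0.

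**Figure D3:**
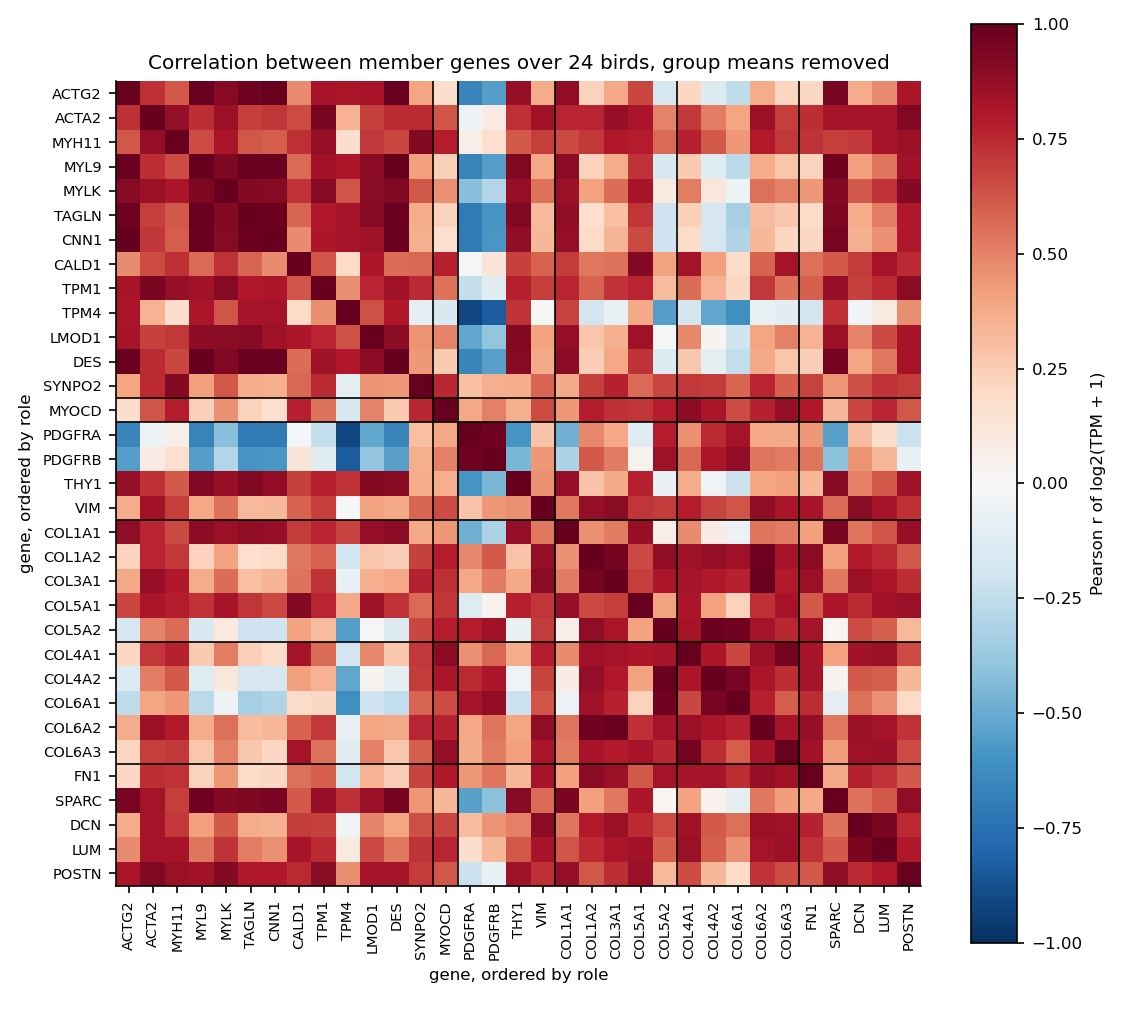
Pearson correlation of log2(TPM + 1) between the 33 genes over 24 birds after removal of the group means, with genes in the order of their roles on both axes. The contractile genes form a block with a median r of 0.78, and PDGFRA and PDGFRB are opposite to ACTG2 and TPM4.

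In all, 6 relations among genes of the set, VIL1 and the span slope were tested over the 24 birds. Their p-values were adjusted over the Pearson and Spearman tests together. The permutations ran over all 24 birds without regard to group, so differences between group means enter these p-values. MYH11 rose with COL1A1 (Pearson r = 0.66, permutation p = 0.00042, adjusted 0.00252; Spearman rho = 0.74, permutation p = 8.0e-05, adjusted 0.00096). Without the 2 birds farthest from the median MYH11 level, r was 0.77. Within groups r was 0.21 in HASI, 0.83 in HASN, 0.58 in LASI and 0.88 in LASN. MYH11 with ACTG2 gave r = 0.49 (permutation p = 0.0153, adjusted 0.0306) and rho = 0.55 (permutation p = 0.00566, adjusted 0.0136). Without the 2 farthest birds r was 0.56, and within groups it was 0.37 in HASI, 0.67 in HASN, 0.77 in LASI and 0.90 in LASN.

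COL1A1 with COL3A1 gave r = 0.56 (permutation p = 0.0046, adjusted 0.0136) and rho = 0.61 (permutation p = 0.00174, adjusted 0.00696), or r = 0.59 without the 2 farthest birds. That relation did not hold within every group, with r of -0.65 in HASI, 0.65 in HASN, 0.49 in LASI and 0.89 in LASN. MYH11 fell as VIL1, the epithelial villin gene, rose, at rho = -0.48 (permutation p = 0.0212, adjusted 0.0363), while r = -0.41 did not pass (permutation p = 0.0496, adjusted 0.0745). Without the 2 farthest birds r was -0.59, and within groups it was -0.52 in HASI, -0.36 in HASN, -0.77 in LASI and -0.51 in LASN. COL1A1 with VIL1 (r = -0.29, permutation p = 0.176, adjusted 0.211; rho = -0.39, permutation p = 0.0638, adjusted 0.0851) did not pass. Its r was -0.34 without the 2 farthest birds, and -0.74, 0.18, -0.74 and -0.23 within HASI, HASN, LASI and LASN. MYH11 with the span slope (r = 0.27, permutation p = 0.206, adjusted 0.225; rho = 0.16, permutation p = 0.456, adjusted 0.456) did not pass either. Its r was 0.33 without the 2 farthest birds, and 0.57, -0.15, -0.04 and 0.59 within HASI, HASN, LASI and LASN.

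Comparing LASI with LASN asks how the low-antibody line differed after antigen. The receptor genes PDGFRA and PDGFRB, the collagen chain genes COL6A1 and COL4A2 and the contractile gene SYNPO2 were lower in injected birds, and the tropomyosin gene TPM4 was higher. In limma's moderated test on log2(TPM + 1), adjusted over all 13279 tested genes by Benjamini-Hochberg, 6 of the 33 genes passed at an adjusted p below 0.05, where 31.1% of all tested genes did. Of the 6, 1 was higher (2.18% of all genes) and 5 were lower (28.9%). Fold changes are on the log2(TPM + 1) scale, which understates the change of low genes. Of the 4 fibroblast receptors or markers, THY1 and VIM did not pass and had log2 fold changes above 0 (0.30 and 0.10).

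PDGFRA (ENSGALG00000013929, chromosome 4, 65398425 to 65431696), the PDGF alpha receptor of fibroblasts, had a lowest, median and highest value of 0.677, 2.38 and 17.3 TPM in LASI birds and 9.64, 25.9 and 43.7 TPM in LASN birds. All LASI birds but replicate 6 lay below every LASN bird. The log2 fold change was -2.61 (SE 0.75, 95% interval -4.16 to -1.05, adjusted p = 0.0200).

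PDGFRB (ENSGALG00000030613, chromosome 13, 13957973 to 13973578), the beta receptor that also marks pericytes, the cells that wrap small vessels, moved in the same direction. It had 0.610, 1.19 and 6.0 TPM as lowest, median and highest in LASI birds, against 2.44, 7.88 and 18.4 TPM in LASN birds. Again all LASI birds but replicate 6 lay below every LASN bird, and the difference was -1.86 on the log2 scale (SE 0.57, adjusted p = 0.0227). The 4 measured pericyte markers (RGS5, MCAM, KCNJ8 and ABCC9) summed to 395 to 1091 TPM in LASI birds and 370.1 to 703 TPM in LASN birds. RGS5 made up most of that sum and averaged 582 TPM in LASI and 519 in LASN. The means of MCAM (35.8 against 41.3 TPM), KCNJ8 (13.8 against 16.7) and ABCC9 (2.67 against 6.83) were lower in LASI. Of the 4, ABCC9 alone was called lower, where 28.9% of all tested genes were. The part of these markers in the PDGFRB difference was not tested.

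COL6A1 (ENSGALG00000005974, chromosome 7, 6741231 to 6760769), a chain of the microfibrillar type VI collagen, had 19.9, 39.5 and 77.4 TPM as lowest, median and highest in LASI birds and 43.0, 114 and 159.9 TPM in LASN birds. All LASN birds but replicate 3 lay above every LASI bird. It differed by -1.28 on the log2 scale (SE 0.44, adjusted p = 0.0339). COL6A2 and COL6A3, the other measured type VI chains, had log2 fold changes of -0.08 and 0.03 that did not pass (adjusted p = 0.799 and 0.923).

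COL4A2 (ENSGALG00000016843, chromosome 1, 140248816 to 140390143), a chain of the basement membrane collagen, had 14.1, 37.5 and 62.3 TPM as lowest, median and highest in LASI birds, against 28.5, 90.7 and 119 TPM in LASN birds. All LASN birds but replicate 3 lay above every LASI bird, and the difference was -1.19 on the log2 scale (SE 0.42, adjusted p = 0.0369). For COL4A1, the chain it pairs with, the difference was -0.18 (adjusted p = 0.654). The ratio of COL4A2 to COL4A1 within a bird had a median of 0.251 in LASI (range 0.160 to 0.425) and 0.535 in LASN (range 0.431 to 0.615), so these groups did not overlap. With group means removed the span slope correlated at 0.74 with COL4A2 and 0.52 with COL4A1, and its part in this ratio was not tested. The models of COL4A2 and COL4A1 overlap at their starts on opposite strands, and whether reads were counted by strand is not given in the sources used here.

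SYNPO2 had 3.14, 17.7 and 53.2 TPM as lowest, median and highest in LASI birds and 16.0, 47.4 and 59.9 TPM in LASN birds, with overlap. Its log2 fold change was -1.198 (SE 0.45) at an adjusted p of 0.0470, the largest of the 6. The gene TPM4 (ENSGALG00000002563, chromosome 28, 4532733 to 4540968) was the one contractile gene called higher. Its level was 6.49, 52.9 and 127 TPM as lowest, median and highest in LASI birds, against 4.17, 7.69 and 19.3 TPM in LASN birds. All LASI birds but replicate 6 lay above every LASN bird, and the log2 fold change was 2.28 (SE 0.75, 95% interval 0.72 to 3.84, adjusted p = 0.0293). The models of TPM4 and RAB8A, a vesicle transport gene, overlap on the same strand, and RAB8A was lower (log2 fold change -0.62, adjusted p = 0.0483).

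The remaining 27 genes did not pass. ACTG2 had a log2 fold change of 0.72 (95% interval -0.55 to 1.99), MYH11 -0.40 (-1.19 to 0.40), DES 0.26 (-0.69 to 1.20), COL1A1 0.09 (-0.54 to 0.72) and COL3A1 -0.21 (-0.82 to 0.39). The median over the 33 genes was 0.09, against -0.33 over all tested genes. Over the 13 contractile genes it was 0.40, with 11 above and 2 below 0. Median-ratio rescaling moved the median of all genes to 0.03 and that of the 33 genes to 0.52, and 8 of them then passed, 5 higher (CALD1, TPM4, VIM, DCN and LUM) and 3 lower (PDGFRA, PDGFRB and COL6A1). The contractile median after rescaling was 0.83, with 12 above and 1 below 0. With the span slope as a covariate PDGFRA alone passed (log2 fold change -0.62, adjusted p = 0.0246). The median over the 33 genes was then -0.02, with 16 above and 17 below 0, that over the 13 contractile genes -0.29, and ACTG2 and DES had fold changes of -0.34 and -0.51. The count of genes called was 0 without LASI replicate 2, 4 or 5 or LASN replicate 5 or 6, 2 without LASN replicate 4, and 3 without LASI replicate 3 or LASN replicate 1 or 2. The share of all tested genes called in each of these other fits is not given here, so their counts cannot be set against it. The span slope was -0.237 to -0.0610 in LASI birds and -0.128 to 0.0153 in LASN birds, with the values of LASI replicate 6 and LASN replicate 3 at the overlapping ends.

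**Figure D4:**
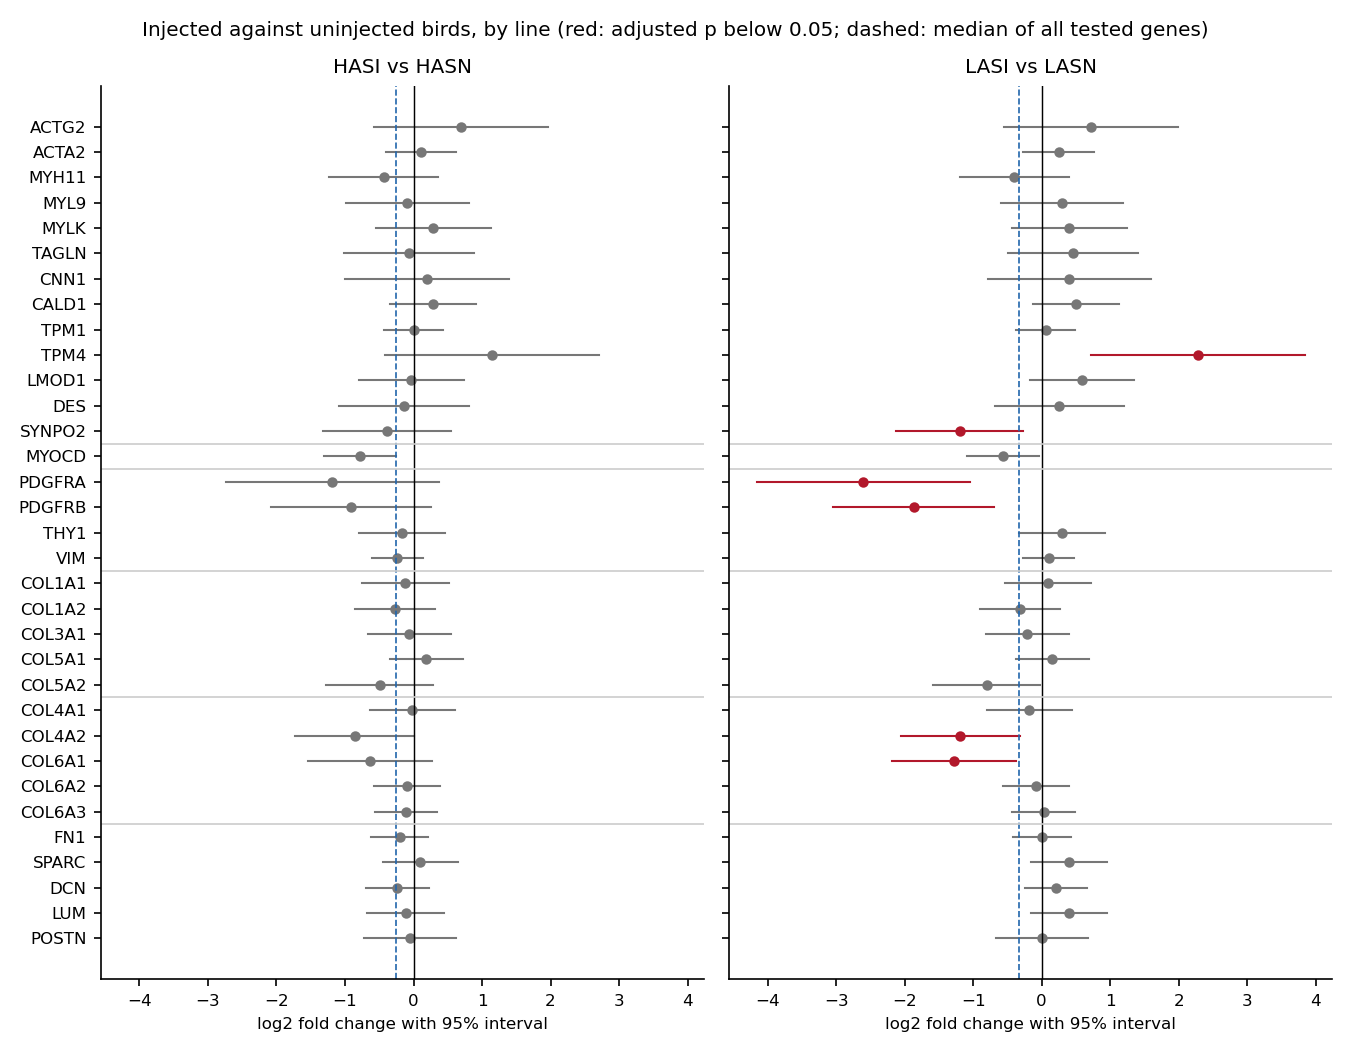
Log2 fold change of the 33 genes with its 95% interval in HASI against HASN (left) and LASI against LASN (right), with red for an adjusted p below 0.05 and a dashed line at the median of all tested genes. In LASI against LASN 6 genes are red, with TPM4 at 2.28 and PDGFRA at -2.61, and in HASI against HASN none is.

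Comparing HASI with HASN asks the same of the high-antibody line. No member passed, where 2.0% of all tested genes did (0.241% higher and 1.75% lower), and 1, MYOCD, had an unadjusted p below 0.05. MYOCD (ENSGALG00000001021, chromosome 18, 808100 to 1027820) had a lowest, median and highest value of 1.84, 2.50 and 3.38 TPM in HASI birds and 3.07, 4.56 and 8.54 TPM in HASN birds. The groups overlapped through the highest HASI bird and the lowest HASN birds. The log2 fold change was -0.78 (SE 0.25, 95% interval -1.31 to -0.25, adjusted p = 0.132).

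The genes that passed in the LAS line had wide intervals here. PDGFRA had 0.976, 3.95 and 10.9 TPM as lowest, median and highest in HASI birds, against 0.862, 19.1 and 41.6 TPM in HASN birds. The HASN birds split as in the span slope: replicates 1 to 3 had 3.13, 0.862 and 2.05 TPM, and replicates 4 to 6 had 37.5, 35.1 and 41.6 TPM. Its log2 fold change was -1.18 (95% interval -2.74 to 0.37, adjusted p = 0.385). PDGFRB (-0.91, 95% interval -2.09 to 0.26), COL4A2 (-0.86, -1.73 to 0.01), COL6A1 (-0.63, -1.54 to 0.28) and TPM4 (1.15, -0.41 to 2.70) did not pass either.

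The median log2 fold change over the 33 genes was -0.11, against -0.26 over all tested genes, with 24 of the 33 below 0, but 25 of the 33 lay above 0 after median-ratio rescaling. The share of all tested genes below 0 is not given here. With the span slope as a covariate PDGFRA passed (log2 fold change -0.52, adjusted p = 0.0219). The ratio of COL4A2 to COL4A1 had a median of 0.297 in HASI (range 0.112 to 0.411) and 0.467 in HASN (range 0.360 to 0.607), with overlap.

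The test of the difference between the lines in their injection effect, HAS minus LAS, called none of the 33 genes, and 0% of all tested genes, by limma. None of the 33 had an unadjusted p below 0.05. The smallest unadjusted p belonged to DCN (difference -0.44, 95% interval -1.09 to 0.20), LUM (-0.52, -1.31 to 0.27) and PDGFRA (1.42, -0.78 to 3.62), each at an adjusted p of 0.750. The intervals are wide, and a call in the LAS line beside none in the HAS line is therefore not a shown difference between the lines.

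Injected birds were then compared with uninjected birds averaged over the lines, which uses the same libraries as the comparisons within each line. By limma 6 of the 33 genes passed, where 41.1% of all tested genes did. TPM4 was higher by 1.71 on the log2 scale (SE 0.53, adjusted p = 0.0176), where 2.33% of all genes were called higher. The other 5 were lower, as were 38.8% of all genes. These were MYOCD (-0.67, SE 0.18, adjusted p = 0.00967), PDGFRA (-1.89, SE 0.53, adjusted p = 0.0116), PDGFRB (-1.39, SE 0.40, adjusted p = 0.0132), COL4A2 (-1.03, SE 0.30, adjusted p = 0.0132) and COL6A1 (-0.96, SE 0.31, adjusted p = 0.0211).

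In LAS birds MYOCD had a lowest, median and highest value of 1.77, 3.13 and 5.52 TPM in LASI and 2.64, 5.79 and 7.63 TPM in LASN, with overlap. MYOCD spans 219721 bases. The 1328 tested genes with the longest genomic spans had median log2 fold changes of -0.65 in LASI against LASN and -0.39 in HASI against HASN. MYOCD had -0.56 and -0.78, and the part of its span was not tested. Over the 13 contractile genes, many of which myocardin is known to drive, the median log2 fold change was 0.20, against -0.29 over all tested genes. Of the 13, 11 lay above 0 and TPM4 was called. After median-ratio rescaling the contractile median was 0.55, against 0.009 over all tested genes. Rescaling gave 8 calls, 4 higher (ACTA2, CALD1, TPM4 and LUM) and 4 lower (PDGFRA, PDGFRB, COL4A2 and COL6A1), and left MYOCD at an adjusted p of 0.0646. With the span slope as a covariate the contractile median turned to -0.04, with 5 above and 8 below 0, against -0.10 over all tested genes. In that fit PDGFRA (-0.57, adjusted p = 0.00116) and PDGFRB (-0.42, adjusted p = 0.0362) passed and the other 4 did not. For both alternative fits the share of all tested genes called is not given here.

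Mitochondrial genes took 27.8 ± 6.86% of the TPM in HASI birds and 17.54 ± 4.53% in HASN birds, and 22.1 ± 4.05% in LASI birds and 15.0 ± 3.32% in LASN birds (SD, n = 6 each). Some markers of other cells were also called lower in injected birds, where 38.8% of all tested genes were. These were FLT1 and TIE1 (2 of 8 tested endothelial markers), ABCC9 and MCAM (2 of 4 of pericytes) and CHAT and NOS1 (2 of 9 of enteric neurons). So were KIT (1 of 2 of interstitial cells of Cajal), CD3E and PTPRC (2 of 4 of leukocytes) and CDH1 (1 of 10 of epithelium). Of glia, mesothelium and striated muscle, with 3, 1 and 4 tested markers, none was called. No marker of these lists was called higher, and their part in the result was not tested.

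**Figure D5:**
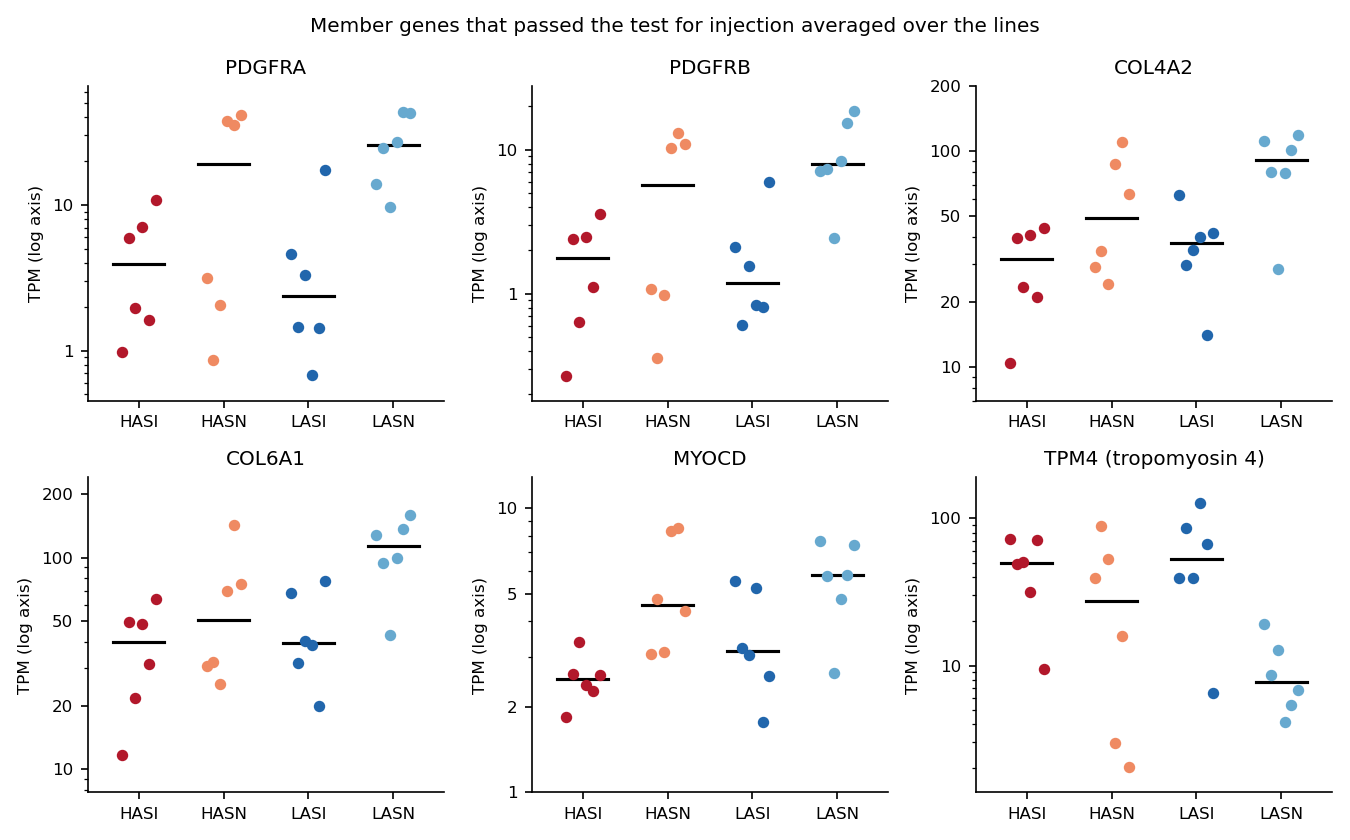
TPM (log axis) of the 6 genes that passed for injection averaged over the lines, in each bird by group. Points are birds, 6 per group, and bars are group medians. PDGFRA and PDGFRB show HASN birds in separate high and low sets, and TPM4 shows 5 LASI birds above every LASN bird.

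Ratios within a bird describe genes whose products work together. COL6A1 to COL6A2 had a median ratio of 0.253 in LASI (range 0.201 to 0.553) and 0.675 in LASN (0.518 to 0.770), with overlap, while COL6A3 to COL6A2 had 0.313 in LASI and 0.285 in LASN. COL5A2 to COL5A1 had 0.386 in LASI (0.230 to 0.861) and 0.864 in LASN (0.665 to 0.948), with overlap. The gene models of COL5A2 and COL3A1 overlap on opposite strands, at means of 24.4 and 419 TPM over 24 birds. Whether reads were counted by strand is not given, so the level of COL5A2 is uncertain. MYH11 to ACTG2, myosin to actin, had 0.287 in LASI (0.213 to 0.761) and 0.771 in LASN (0.483 to 0.948). In the other line it had 0.303 in HASI (0.189 to 0.561) and 0.567 in HASN (0.225 to 3.003), and both pairs of groups overlapped. The span slope had a median of -0.191 in LASI and -0.0524 in LASN. With group means removed it correlated at 0.11 with MYH11 and -0.64 with ACTG2. For COL5A2 and COL5A1 these values were 0.78 and -0.06. For COL6A1, COL6A2 and COL6A3 they were 0.80, 0.39 and 0.44. The part of the span slope in the ratios was not tested. The ratios themselves were not tested, and neither MYH11 nor ACTG2 passed in any comparison of the main fit.

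Comparing the lines asks how selection relates to these genes. Most of the set had fold changes below 0, which means a lower level in HAS than in LAS birds. POSTN alone passed in the main fit, and only when averaged over injection. In HASN against LASN no member passed, where 1.17% of all tested genes did (0.331% higher and 0.843% lower), and 3 had an unadjusted p below 0.05 (POSTN, COL6A1 and ACTA2). The median log2 fold change was -0.37, against -0.19 over all tested genes, and 30 of 33 genes lay below 0, or 22 after median-ratio rescaling. In HASI against LASI no member passed, where 0.542% of all tested genes did (0.158% higher and 0.384% lower), and 5 had an unadjusted p below 0.05 (VIM, POSTN, DCN, ACTA2 and FN1). There the median was -0.44, against -0.06 over all tested genes, and 32 of 33 genes lay below 0, or 31 after rescaling. The genes of a library vary together, so these counts are not separate observations. The medians of all tested genes were also below 0. The shares of all tested genes below 0, or with an unadjusted p below 0.05, are not given here.

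Averaged over injection, which reuses the libraries of those comparisons, POSTN alone passed, as lower, where 1.88% of all tested genes were called lower and 2.60% in either direction. POSTN (ENSGALG00000017046, chromosome 1, 173372443 to 173406135) had a lowest, median and highest value of 3.25, 3.78 and 7.02 TPM in HASI birds, against 5.03, 9.0 and 19.5 TPM in LASI birds. It had 1.81, 3.95 and 10.9 TPM in HASN birds, against 4.93, 10.4 and 12.8 TPM in LASN birds. The groups overlapped in each pair. The log2 fold change of POSTN was -0.91 (SE 0.23, 95% interval -1.39 to -0.43, adjusted p = 0.0324). Over the 33 genes the median was -0.43, against -0.14 over all tested genes. Of them 31 lay below 0, also after rescaling, and 10 had an unadjusted p below 0.05. With the span slope as a covariate all 33 lay below 0 (median -0.37, against -0.05), and ACTA2 and POSTN were called lower. The shares of all tested genes below 0, or called with the covariate, are not given here.

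The call of POSTN ended after rescaling (log2 fold change -0.76, adjusted p = 0.122) and without any of 13 libraries. These were HASI replicates 1, 4, 5 and 6, HASN replicates 1, 3 and 4, LASI replicates 1 and 2 and LASN replicates 1, 4, 5 and 6, and POSTN then kept a log2 fold change of -0.91 to -0.86. Without HASN replicate 5, which had the highest collagen sum, 6 genes passed (ACTA2, VIM, COL1A2, COL3A1, COL6A2 and POSTN), and without LASI replicate 5 or LASN replicate 3 there were 2, ACTA2 and POSTN. For these runs too the share of all tested genes called is not given here.

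ACTA2, the alpha smooth muscle actin, and VIM came next. ACTA2 (ENSGALG00000006343, chromosome 6, 20062668 to 20118932) had a lowest, median and highest value of 53.7, 77.8 and 94.0 TPM in HASI birds, against 77.3, 123 and 192 TPM in LASI birds. It had 43.0, 65.3 and 129 TPM in HASN birds, against 61.7, 109 and 119 TPM in LASN birds, and its averaged log2 fold change was -0.58 (95% interval -0.95 to -0.22, adjusted p = 0.0837). VIM (ENSGALG00000008677, chromosome 2, 19700327 to 19802856) had 41.7, 64.9 and 78.8 TPM in HASI birds, against 79.9, 85.3 and 126 TPM in LASI birds, and these groups did not overlap. Its log2 fold change between injected birds was -0.56 (SE 0.18, adjusted p = 0.268), and the averaged one was -0.39 (adjusted p = 0.131).

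Between injected birds DCN differed by -0.61 on the log2 scale (adjusted p = 0.368). The summed enteric neuron markers, of cells that lie in and beside the muscle coat, ran from 43.6 to 88.0 TPM in HASI and 48.3 to 218 TPM in LASI, and from 32.1 to 148 TPM in HASN and 29.8 to 102 TPM in LASN. None of the 9 measured passed between the lines, where 0.542% to 2.60% of all tested genes did. CHAT was at 0 in 2 libraries and NOS1 in 3. Their part in the line differences was not tested.

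Other genes of the contractile apparatus and the matrix were read from a list of 99, of which 81 were in the table and 79 were tested. Between the lines none passed in any comparison, where few of all tested genes did. Those shares were 1.17% in HASN against LASN, 0.542% in HASI against LASI and 2.60% averaged over injection. In LASI against LASN 3 were higher (PDGFA, TGFB2 and TWIST2) and 14 lower, where 2.18% of all tested genes were higher and 28.9% lower. The median log2 fold change of the list was -0.21, against -0.33 over all tested genes. LPP, a focal adhesion protein gene, was at 2.26 ± 0.567 TPM in LASI and 12.5 ± 7.90 in LASN (log2 fold change -1.88, adjusted p = 0.0060). LAMC1, a laminin chain gene of basement membranes, was lower (-1.21, adjusted p = 0.0175), and the mesenchymal transcription factor gene TWIST2 was higher (0.91, adjusted p = 0.0135).

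PDGFA, which encodes a ligand of the PDGF alpha receptor, was higher after injection in both lines. Its mean was 84.3 ± 21.1 TPM in HASI birds, against 48.7 ± 7.74 TPM in HASN birds (SD, n = 6), a difference of 0.76 on the log2 scale (adjusted p = 0.0133). In LAS birds it was at 90.7 ± 23.0 TPM in LASI and 56.6 ± 7.41 in LASN (0.65, adjusted p = 0.0136). FOXF1 and FOXF2, transcription factor genes of gut mesenchyme, were lower in HASI than in HASN, as was LPP. These with PDGFA were the 4 genes of the list that passed there, where 0.241% of all tested genes were higher and 1.75% lower. FOXF1 averaged 7.34 ± 1.60 TPM in HASI birds and 18.2 ± 7.61 TPM in HASN birds (-1.12, adjusted p = 0.0156). FOXF2 averaged 6.64 ± 1.55 TPM in HASI birds and 12.5 ± 3.49 TPM in HASN birds (-0.80, adjusted p = 0.0133), and LPP differed by -1.42 (adjusted p = 0.0492). Averaged over the lines 2 were higher, PDGFA (0.70, adjusted p = 0.000347) and TWIST2, and 29 were lower, where 2.33% of all tested genes were higher and 38.8% lower.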

How the data were processed

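Jejunum RNA of 24 birds was sequenced, 6 in each of 4 groups. The authors deposited one table of TPM values per gene and library. That unit follows from the values: they hold fractions, and the column totals are alike. The genome build was galGal6, per the submitters' processing notes, and the aligner and counter are not given in the sources used here. TPM keeps no read depth, so no counting error could be given. A gene was kept if 6 or more libraries reached 0.5 TPM. limma 3.58.1 (R 4.3.3) was fitted to log2(TPM + 1) with 1 mean per group, 20 residual degrees of freedom, and a moderated two-sided test with trend and robust settings, adjusted by Benjamini-Hochberg over 13279 genes. The fit was tested on simulated data. Permutation tests used 100000 resamples. The labels give 1 sample per replicate and no pen or batch, so p-values measure the spread between these samples.

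Full values were given to MYH11, ACTG2, DES, COL1A1, COL3A1 and MYOCD, to the 2 most abundant genes of each role, to the 3 smallest p-values of each comparison and to each gene called. The members, gene lists and alternatives were chosen with earlier results of these data known. The alternatives were a pseudocount of 0.1, the filter at 1 TPM or dropped, median-ratio rescaling, a replicate block, the span slope as a covariate, fits of only the groups compared, and leaving out each library.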

Additional observations from a re-analysis of the deposited data

Results flagged for a closer look

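Single birds stood far from the other 5 of their group by Dixon's test at 95% in 11 of 132 sets of gene and group, where chance gives about 1 in 20. The genes of a library vary together, so the sets are not separate observations and the 11 cannot be weighed against that rate. In 8 of the 11 the low bird was LASN replicate 3. It had 61.7 TPM of ACTA2 (others 96.8 to 119), 185 TPM of MYH11 (532 to 699), 108 TPM of MYLK, the myosin light chain kinase gene (212 to 285), and 16.0 TPM of SYNPO2 (38.8 to 59.9). It also had 22.7 TPM of COL5A1 (41.1 to 58.1), 15.1 TPM of COL5A2 (34.7 to 48.9), 66.2 TPM of COL4A1 (153 to 217) and 28.5 TPM of COL4A2 (79.3 to 119). Its summed epithelial markers were the highest of the 24 birds, at 71068 TPM, and its summed enteric neuron markers the lowest, at 29.8 TPM. The part of these in the low values was not tested.

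In the other 3 the high bird was HASN replicate 5, with 56.1 TPM of SYNPO2 (others 14.5 to 20.6), 824 TPM of COL3A1 (235 to 350.2) and 229 TPM of COL6A2 (85.4 to 122).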

How the results depend on the processing

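The genes called kept their direction under each alternative run, but medians of the 33 genes near 0 turned sign: with rescaling to 0.16 in HASI against HASN (-0.11 without it) and to 0.34 for injection averaged over the lines (-0.01 without it), and to -0.02 in LASI against LASN under the span slope covariate (0.09 without it). Leaving out 1 library also turned the sign of some of these medians. The count of genes called stayed at 0 in HASN against LASN, HASI against LASI and the difference of injection effects under each alternative run, and in HASI against HASN it became 1 when the span slope was a covariate. In LASI against LASN the count was 1 with that covariate and 0 to 8 leaving out 1 library, and the median of the 33 genes moved to 0.52 with rescaling. For the lines averaged over injection the count was 0 with rescaling, 2 with the covariate and 0 to 6 leaving out 1 library. For injection averaged over the lines it was 2 with the covariate and 6 to 8 leaving out 1 library. SYNPO2 in LASI against LASN lost its call without any of 14 libraries and in 6 of the 7 other alternatives (adjusted p 0.0196 to 0.410 over all of them).

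The replicate block gave 5 calls in LASI against LASN, 7 for injection averaged over the lines, 1 for the lines averaged over injection and 0 elsewhere. For no alternative run is the share of all tested genes called given here, so the counts of these runs cannot be set against it. The labels do not say whether equal replicate numbers pair the birds. Deviations from the group means correlated between same-numbered birds at -0.57 to 0.79, above 0.1 in 17 of 36 pairs, and in 9 the own number correlated best. Many genes move with the span slope, which can itself make birds alike, so a pairing was neither shown nor excluded.

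In LASI against LASN rescaling shifted the median of all genes to 0.03, against -0.33 without it. With no read depth in TPM, low levels such as those of PDGFRB and MYOCD carry an unknown counting error.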
